A study of Mus musculus with 18 samples.

Results

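E14 mouse embryonic stem cells that lack the kinase GCN2 were examined after 3 h without leucine. The comparison holds 6 of the 18 libraries of the series, chosen by their labels: 3 libraries of Eif2ak4-/- cells starved of leucine (Gcn Leu) and 3 of Eif2ak4-/- cells kept in complete medium (Gcn Unstarved). Both groups carry the same loss of Eif2ak4, the gene that encodes GCN2, so the comparison asks what leucine starvation does when this sensor is missing. Starved cells received SILAC medium with 5% dialyzed serum, leukaemia inhibitory factor (LIF) and lysine but no leucine, and unstarved cells received that medium with every amino acid. Before that, both had been grown on gelatin with 15% serum and LIF at 10 ng/ml. For reference, the same contrast in wild-type E14 cells (Wt Leu and Wt Unstarved) and the arginine-starved Eif2ak4-/- cells (Gcn Arg) were used, with 3 libraries a group. The labels do not say whether the Eif2ak4-/- cells are 1 clone, nor whether replicates are separate cultures. The p-values therefore set group differences against the scatter between these libraries, and that scatter may be technical.

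GCN2 is switched on by uncharged tRNA and phosphorylates the translation factor eIF2α, which slows general translation but favours translation of the Atf4 mRNA. ATF4 then turns on genes for amino acid synthesis, uptake and tRNA charging together with stress effectors, a programme called the integrated stress response (ISR). Leucine is also sensed on a separate route, in which Sestrins and the GATOR and Rag proteins set the activity of the kinase mTORC1 on the lysosome, and TFEB, TFE3 and MITF turn on lysosomal genes when that activity drops.

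The 6 libraries held 24.1 to 38.8 M counts, within the 14.8 to 38.8 M of the whole series. Eif2ak4 itself stood at 4.55, 4.06 and 5.57 CPM in Gcn Leu, against 6.14, 4.91 and 4.64 CPM in Gcn Unstarved, while it stood at 26.999, 27.5 and 27.9 CPM in Wt Leu, against 32.4, 33.2 and 29.6 CPM in Wt Unstarved. All 6 Eif2ak4-/- libraries lie below all 6 wild-type libraries, and Eif2ak4 was not called between Gcn Leu and Gcn Unstarved (log2 fold change -0.15 ± 0.18 (SE), adjusted p = 0.621). CPM are counts scaled to library size by trimmed mean of M-values (TMM), here over 18 libraries and elsewhere, unless said, over the 9 Eif2ak4-/- libraries. The labelled cell type was matched by its markers: the summed level of 8 embryonic stem cell markers, none at 0, ran from 6963 to 7388 CPM in Gcn Leu and from 6335 to 6448 CPM in Gcn Unstarved. The sum of 12 fibroblast markers ran from 23.7 to 28.02 CPM in Gcn Leu and from 25.7 to 29.0 CPM in Gcn Unstarved, with 2 of the 12 at 0 in each group. The first principal component of the 9 Eif2ak4-/- libraries (39.6% of the variance) parted starved from unstarved cells, the next (19.8%) set the libraries numbered 1 apart from the others, and the next (13.5%) parted leucine from arginine starvation.

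Leucine starvation without GCN2 changed a large share of transcripts. By the edgeR quasi-likelihood test at a Benjamini-Hochberg adjusted p under 0.05, 3561 of 16369 genes tested (21.8%) were called, 1920 of them higher (11.7%) and 1641 lower (10.0%) in Gcn Leu than in Gcn Unstarved. Most changes were modest, since 331 of the higher and 106 of the lower genes passed a log2 fold change of 1 in size. The 2 groups did not overlap in CPM at 3532 of the called genes, and at 6042 of all genes tested (36.9%), so a lack of overlap is common and is given as a description. With the replicate number as a block, 6651 genes (40.6%) were called, 3348 higher (20.5%) and 3303 lower (20.2%), including every gene called without it and with the same sign. Without Gcn Unstarved 2, 2171 genes were called, and with scaling by library size alone the split was 2609 higher and 1066 lower. The counts of list members below are set against these shares of all genes, 11.7% higher and 10.0% lower, or 20.5% and 20.2% with the replicate block. Because lists and members were chosen with earlier results of these data known, those counts are descriptions and not tests.

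**Figure D1:**
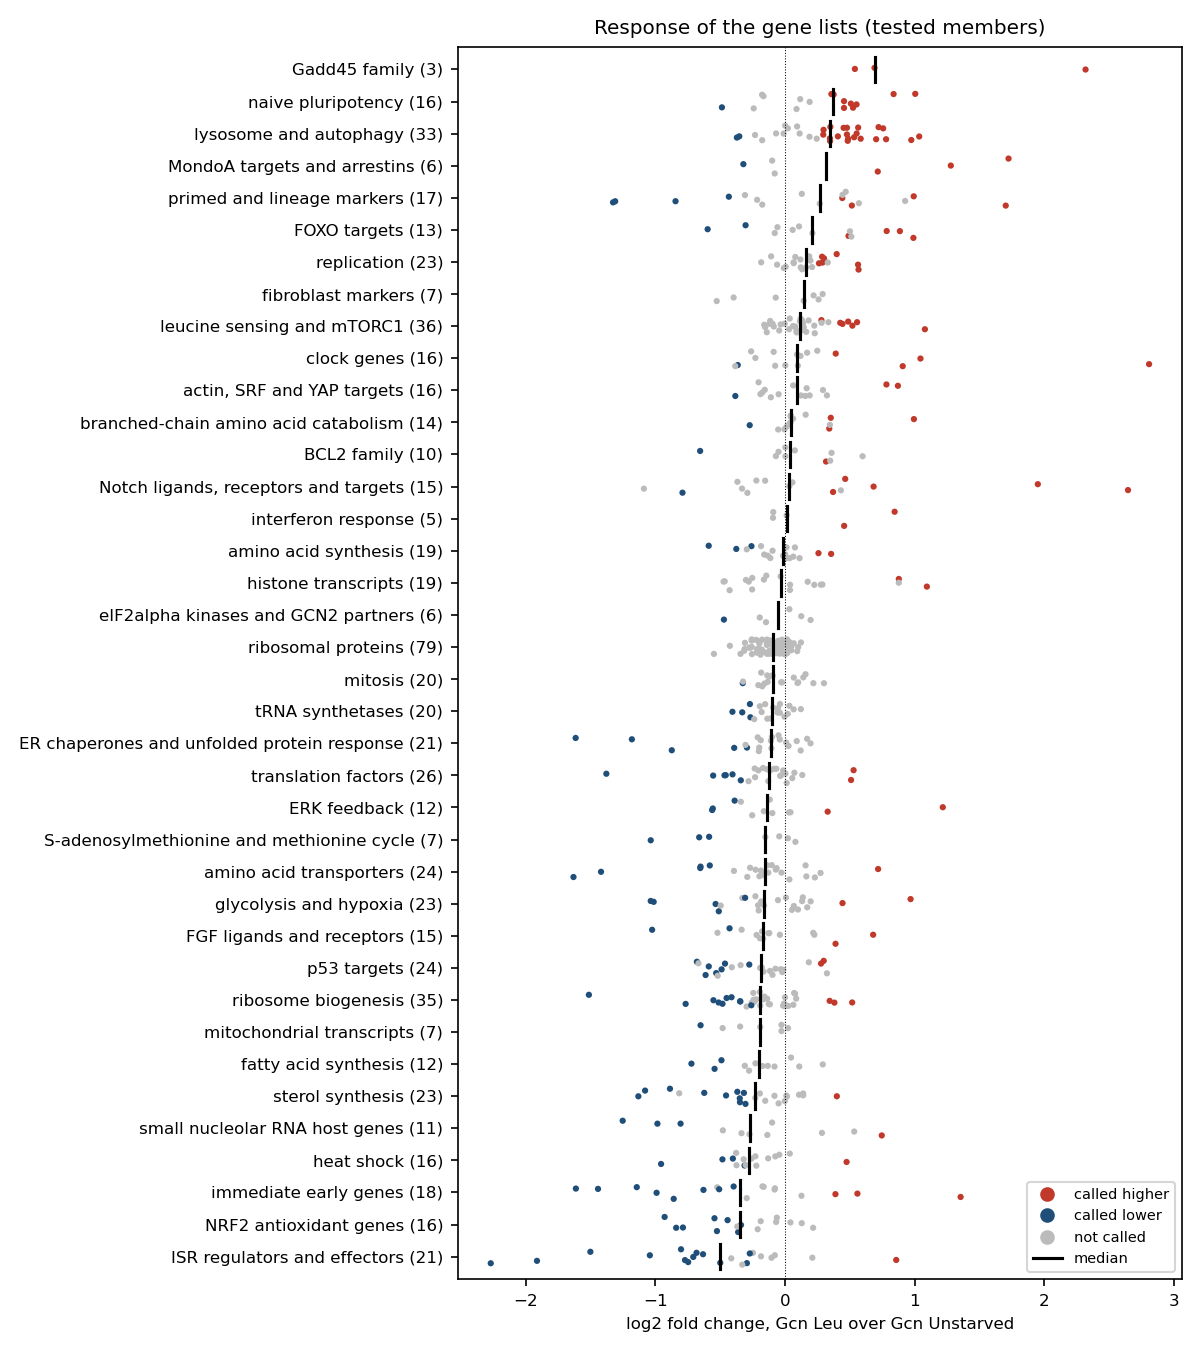
Log2 fold change of Gcn Leu over Gcn Unstarved (horizontal axis) for each tested member (points) of 38 gene lists, ordered by their medians (vertical marks), with coloured points for called genes. Lysosome and MondoA lists sit toward the right and ISR, NRF2 and immediate early lists toward the left, with members on both sides of 0 in most lists.

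The ISR effectors went down, not up. Of 21 tested ISR regulators and effectors, 13 fell and 1 rose, against 10.0% and 11.7% of all genes, and their median log2 fold change was -0.50, against 0.00 over all genes tested. In bulk RNA, fewer cells expressing a gene and less RNA per cell cannot be told apart. Chac1, an enzyme that degrades glutathione, was at 4.51, 3.84 and 6.05 CPM in Gcn Leu, against 28.5, 22.9 and 18.7 CPM in Gcn Unstarved. Every Gcn Leu library lay below every Gcn Unstarved library, a 4.82-fold decrease (log2 fold change -2.27 ± 0.18 (SE), adjusted p = 6.73e-06). Trib3, a pseudokinase that restrains ATF4 and CHOP, was at 17.4, 14.5 and 16.5 CPM in Gcn Leu, against 67.9, 59.1 and 55.7 CPM in Gcn Unstarved. It was 3.77-fold lower with no overlap (log2 fold change -1.91 ± 0.12 (SE), adjusted p = 7.91e-07).

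The promoters of Chac1 and Trib3 are shown because both hold the core of the element that ATF4 binds with C/EBP partners, TGATGNAA. The sequences are RefSeq promoter windows on GRCm38.p6, written 5′ to 3′ on the strand of the gene: chr2:119350992-119351291 on the plus strand for Chac1 and chr2:152344011-152344310 on the minus strand for Trib3. Capitals mark the match, which is read on the opposite strand in both and so appears as its reverse complement.
Chac1: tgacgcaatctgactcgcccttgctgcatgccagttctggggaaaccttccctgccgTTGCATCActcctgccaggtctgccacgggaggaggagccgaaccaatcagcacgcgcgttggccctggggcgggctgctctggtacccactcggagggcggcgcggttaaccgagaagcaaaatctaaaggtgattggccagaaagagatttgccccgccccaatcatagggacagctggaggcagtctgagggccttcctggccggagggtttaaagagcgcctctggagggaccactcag
Trib3: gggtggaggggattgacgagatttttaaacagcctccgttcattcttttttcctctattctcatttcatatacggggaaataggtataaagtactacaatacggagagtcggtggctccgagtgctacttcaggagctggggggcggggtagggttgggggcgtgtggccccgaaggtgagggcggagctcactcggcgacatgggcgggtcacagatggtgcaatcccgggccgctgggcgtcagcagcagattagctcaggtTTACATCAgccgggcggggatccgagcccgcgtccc
Both strands were searched for TGATGNAA, which is found in 4.51% of 27025 genes with a promoter window. Of 18 tested ISR genes with a window, 7 held it, among them 5 of the 12 that fell: Chac1, Trib3, Nupr1, Inhbe and Vldlr. A match describes the letters of the window and is not evidence of binding.

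Secreted ISR products moved with them. Inhbe, an inhibin β subunit, was at 0.350, 0.780 and 0.831 CPM in Gcn Leu, against 2.04, 1.91 and 1.75 CPM in Gcn Unstarved (log2 fold change -1.50 ± 0.29 (SE), adjusted p = 0.0023). Gdf15, a stress-induced cytokine that curbs feeding, was at 8.01, 9.82 and 8.80 CPM in Gcn Leu, against 17.9, 20.8 and 16.2 CPM in Gcn Unstarved (log2 fold change -1.04 ± 0.12 (SE), adjusted p = 7.22e-05). Stc2, a secreted glycoprotein, was at 5.42, 5.53 and 6.59 CPM in Gcn Leu, against 10.9, 10.7 and 8.51 CPM in Gcn Unstarved (log2 fold change -0.77 ± 0.14 (SE), adjusted p = 0.00139). In all 3 genes the starved libraries were below the unstarved ones without overlap.

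Within the same list, Nupr1, a small chromatin-associated stress protein, fell (-0.68, adjusted p = 0.00328), as did Gpt2, a mitochondrial alanine transaminase (-0.63, adjusted p = 0.000508), and Atf5, a transcription factor close to ATF4 (-0.50, adjusted p = 0.00185). Sesn2, a leucine-binding Sestrin that is also an ATF4 target, was at 231, 251 and 212 CPM in Gcn Leu, against 379, 414 and 340.0 CPM in Gcn Unstarved (log2 fold change -0.71 ± 0.10 (SE), adjusted p = 0.000261). The groups did not overlap, and Sesn2 was 1.63-fold lower. Ddit4, an inhibitor of mTORC1 upstream of TSC, was at 30.7, 47.9 and 39.4 CPM in Gcn Leu, against 54.7, 76.9 and 66.4 CPM in Gcn Unstarved (log2 fold change -0.75 ± 0.22 (SE), adjusted p = 0.0361, lost without Gcn Leu 1 or 3 or Gcn Unstarved 2 or 3, adjusted p up to 0.109). Eif4ebp1, a repressor of the cap-binding protein eIF4E, fell slightly (-0.27, adjusted p = 0.0384, lost without Gcn Leu 1 or 3, Gcn Unstarved 2 or 3 or the libraries numbered 1, with library size scaling or without a filter, adjusted p up to 0.122). Vldlr, a lipoprotein receptor, fell from a low level (-0.80, adjusted p = 0.0495, lost without Gcn Leu 1 or 2, Gcn Unstarved 1, 2 or 3 or the libraries numbered 1 or with library size scaling, adjusted p up to 0.162). Ndrg1, a stress- and differentiation-linked gene, was the member that rose, at 38.9, 38.9 and 33.6 CPM in Gcn Leu, against 20.9, 20.1 and 20.5 CPM in Gcn Unstarved (log2 fold change 0.86 ± 0.09 (SE), adjusted p = 4.40e-05).

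Among the transcription factors of the programme, Atf4 mRNA was at 334, 346 and 318 CPM in Gcn Leu, against 434, 407 and 384 CPM in Gcn Unstarved, with every starved library below the unstarved ones (log2 fold change -0.29 ± 0.08 (SE), adjusted p = 0.0192, lost without Gcn Leu 3, Gcn Unstarved 1 or 2 or the libraries numbered 1 or with library size scaling, adjusted p up to 0.0806). Ddit3, which encodes CHOP, was at 15.1, 20.6 and 18.7 CPM in Gcn Leu, against 14.98, 16.7 and 15.5 CPM in Gcn Unstarved, with overlapping groups, and was not called (log2 fold change 0.21 ± 0.14 (SE), adjusted p = 0.346). Atf3, an ATF4-induced repressor, was not called either (-0.25, adjusted p = 0.338). The same held for the C/EBP factors Cebpb (-0.42, adjusted p = 0.0586) and Cebpg (-0.19, adjusted p = 0.153), and the replicate block called Cebpb lower (adjusted p = 0.00263) and Cebpg lower (adjusted p = 0.0271). The eIF2α phosphatase subunits Ppp1r15a (-0.10, adjusted p = 0.537) and Ppp1r15b (-0.08, adjusted p = 0.554) were not called.

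**Figure D2:**
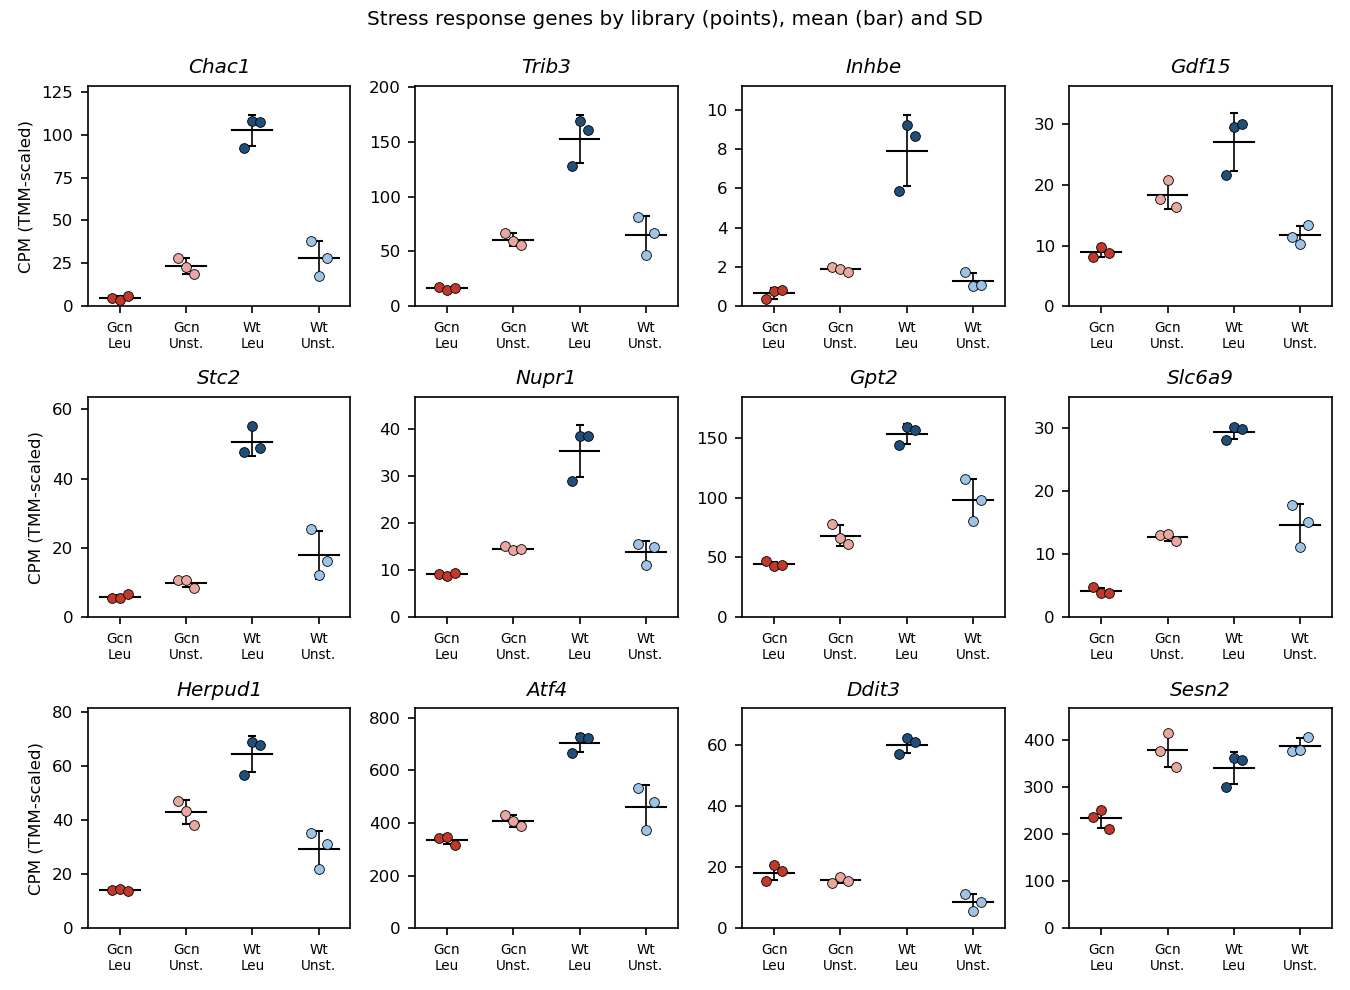
CPM (vertical axis, scaled over 18 libraries) of 12 ISR genes in each library (points) with group means (lines) and SD (bars, n = 3), for Gcn Leu, Gcn Unstarved, Wt Leu and Wt Unstarved from left to right. Chac1 and Trib3 are lowest in Gcn Leu and highest in Wt Leu.

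With GCN2 present, many of these genes rose under the same starvation. In Wt cells, 17 of the 21 ISR genes rose and 1 fell (15.5% and 14.1% of 16140 genes tested there), and 9 of the 13 that fell in Gcn rose in Wt. Of the other 4, Atf5 fell in Wt (-0.23), while Sesn2 (-0.19), Ddit4 (-0.07) and Eif4ebp1 (0.08) were not called there, and Ndrg1 rose in Wt as in Gcn (0.76). Chac1, scaled over 18 libraries, was at 92.3, 108 and 107 CPM in Wt Leu, against 38.1, 17.6 and 28.1 CPM in Wt Unstarved (log2 fold change 1.87 ± 0.23, adjusted p = 0.000767). The difference between the 2 responses was tested in a fit of all 18 libraries as an interaction, the log2 response in Gcn minus that in Wt. It was called negative for 16 of the 21 ISR genes, against 0.668% of 16924 genes tested. It was positive for none of them, against 0.154%, and 0.821% of genes were called either way. The interaction was -4.15 ± 0.32, adjusted p = 2.66e-06 for Chac1, -4.11 ± 0.39, adjusted p = 1.36e-06 for Inhbe and -3.15 ± 0.22, adjusted p = 1.19e-07 for Trib3. For Ddit3 it was -2.61 ± 0.23, adjusted p = 8.85e-07, with a Wt response of 2.81 and a Gcn response of 0.21. For Atf4 mRNA it was -0.91 ± 0.13, adjusted p = 0.000344. The call was lost for Sesn2 (-0.53 ± 0.13, adjusted p = 0.0489) in 12 alternatives and for Ppp1r15a (-0.63 ± 0.13, adjusted p = 0.0237) without Gcn Leu 2, Gcn Unstarved 1, Wt Leu 2 or 3, or Wt Unstarved 2 or 3 (adjusted p up to 0.0845). The other 14 kept it under every alternative. For Sesn2 the libraries whose removal ended the call were Gcn Leu 1, Gcn Leu 3, Gcn Unstarved 1, Gcn Unstarved 2, Wt Leu 2, Wt Leu 3 and Wt Unstarved 1, 2 and 3 (adjusted p up to 0.168). Gcn and Wt counts came in separate tables that were joined for this fit.

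**Figure D3:**
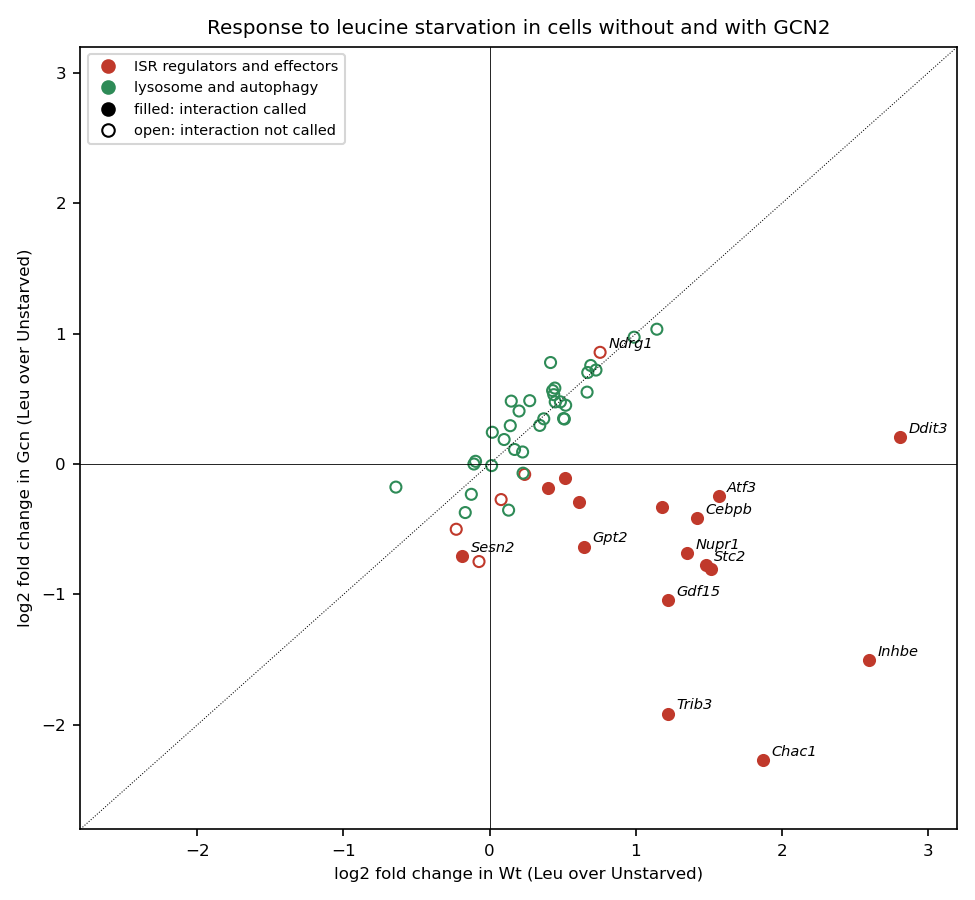
Log2 response to leucine starvation in Gcn (vertical axis) against that in Wt (horizontal axis) for tested ISR genes and lysosome and autophagy genes, with filled points where the interaction was called. ISR genes spread into the lower right, while lysosome genes lie near the diagonal.

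Slc6a9, Herpud1 and Slc7a11, ATF4 or ER stress targets of other lists, fell too. Slc6a9, the glycine transporter GlyT1, was at 4.69, 3.80 and 3.92 CPM in Gcn Leu, against 13.2, 13.3 and 11.97 CPM in Gcn Unstarved (log2 fold change -1.63 ± 0.13 (SE), adjusted p = 3.62e-06). Herpud1, an adaptor for degradation of proteins from the endoplasmic reticulum (ER), was at 13.8, 14.5 and 13.8 CPM in Gcn Leu, against 47.6, 43.4 and 37.97 CPM in Gcn Unstarved (log2 fold change -1.62 ± 0.12 (SE), adjusted p = 2.12e-06). Starved and unstarved libraries did not overlap in either. In Wt cells both rose (0.99 and 1.13), and the interactions were -2.64 ± 0.19, adjusted p = 1.09e-08 for Slc6a9 and -2.76 ± 0.18, adjusted p = 1.09e-08 for Herpud1. Slc7a11, the cystine-glutamate exchanger, was at 0.140, 0.163 and 0.312 CPM in Gcn Leu, against 0.434, 0.487 and 0.798 CPM in Gcn Unstarved (log2 fold change -1.42 ± 0.41 (SE), adjusted p = 0.025, lost without Gcn Leu 1 or 2, Gcn Unstarved 3 or the libraries numbered 1, adjusted p up to 0.124). The groups did not overlap, at a low level, and its interaction was -3.14 ± 0.48, adjusted p = 0.000816.

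Of 21 ER chaperone and unfolded protein response genes, 5 fell and none rose (median -0.11), against 10.0% lower and 11.7% higher of all genes, or 20.2% and 20.5% with the replicate block. Lower genes numbered 10 with the replicate block and 3 without the libraries numbered 1, and higher genes 2 with the replicate block, 1 with library size scaling and 1 with DESeq2. Xbp1, the transcription factor spliced by the ER sensor IRE1, was at 37.1, 32.3 and 37.4 CPM in Gcn Leu, against 91.8, 75.9 and 74.8 CPM in Gcn Unstarved (log2 fold change -1.18 ± 0.10 (SE), adjusted p = 7.30e-06). Hspa5, the ER chaperone BiP, was at 413, 380.5 and 461 CPM in Gcn Leu, against 812, 722 and 766 CPM in Gcn Unstarved (log2 fold change -0.87 ± 0.12 (SE), adjusted p = 0.000204). Neither overlapped between the groups, and Xbp1 fell further than in Wt (interaction -0.77 ± 0.14, adjusted p = 0.00411). Hsp90b1, the ER HSP90, fell (-0.39, adjusted p = 0.0166, lost without Gcn Leu 1 or the libraries numbered 1, adjusted p up to 0.0561). So did Edem1, which feeds misfolded glycoproteins to degradation (-0.29, adjusted p = 0.0266, lost without Gcn Leu 2 or 3, Gcn Unstarved 1 or 2 or the libraries numbered 1, with library size scaling or without a filter, adjusted p up to 0.125). The sensor genes Ern1 (-0.30, adjusted p = 0.138) and Atf6 (0.03, adjusted p = 0.878) and the chaperone Dnajb9 (-0.04, adjusted p = 0.868) were not called. Among 6 tested eIF2α kinases and GCN2 partners, Eif2ak1, which encodes the haem-regulated kinase HRI, fell (-0.47, adjusted p = 0.00154). The kinases PKR (Eif2ak2, 0.20, adjusted p = 0.338) and PERK (Eif2ak3, 0.03, adjusted p = 0.843) were not called. The replicate block added Gcn1l1, the GCN2 activator GCN1 (adjusted p = 0.0048).

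Genes that bring in, make or charge amino acids did not rise as a group. Of 24 amino acid transporters, 5 fell and 1 rose (median -0.15), or 10 and 3 with the replicate block. DESeq2 called 4 lower. Slc7a5, the LAT1 subunit that imports leucine, was at 295, 259 and 261 CPM in Gcn Leu, against 456, 434 and 393 CPM in Gcn Unstarved (log2 fold change -0.65 ± 0.10 (SE), adjusted p = 0.000382). Its partner Slc3a2, the 4F2 heavy chain, was at 307, 319 and 284 CPM in Gcn Leu, against 302, 303 and 284 CPM in Gcn Unstarved and was not called (log2 fold change 0.03 ± 0.09 (SE), adjusted p = 0.839). The starved libraries were below the unstarved ones for Slc7a5, and the groups overlapped for Slc3a2. Against Wt, the interaction was -0.65 ± 0.12, adjusted p = 0.00811 for Slc7a5 and -0.73 ± 0.11, adjusted p = 0.001 for Slc3a2, which rose in Wt (0.75). The cationic transporter Slc7a1 (-0.65, adjusted p = 0.00319) and the neutral transporter Slc38a4 (-0.58, adjusted p = 0.000724) also fell. Slc43a2, the leucine transporter LAT4, was the one that rose, at 21.3, 21.3 and 18.6 CPM in Gcn Leu, against 12.4, 12.8 and 11.9 CPM in Gcn Unstarved (log2 fold change 0.72 ± 0.11 (SE), adjusted p = 0.000363).

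Of 19 amino acid synthesis genes, 3 fell and 2 rose (median -0.02), counts close to the 10.0% lower and 11.7% higher of all genes. Asns, asparagine synthetase and a classical ATF4 target, was at 345, 296 and 281 CPM in Gcn Leu, against 310.4, 284 and 258 CPM in Gcn Unstarved, with overlapping groups, and was not called (log2 fold change 0.11 ± 0.10 (SE), adjusted p = 0.503). Glul, glutamine synthetase, was at 211, 247 and 220.0 CPM in Gcn Leu, against 305, 379 and 336 CPM in Gcn Unstarved and fell without overlap (log2 fold change -0.59 ± 0.13 (SE), adjusted p = 0.00496). Aldh18a1, which opens proline synthesis, fell (-0.38, adjusted p = 0.0253, lost without Gcn Leu 2 or 3 or Gcn Unstarved 1 or 2 or with library size scaling, adjusted p up to 0.0959). So did Mthfd2, a mitochondrial folate enzyme (-0.26, adjusted p = 0.0387, lost without Gcn Leu 2 or 3, Gcn Unstarved 1 or 2 or the libraries numbered 1, with library size scaling, without a filter or in a fit of 6 libraries, adjusted p up to 0.174). Cbs, of the transsulfuration route, rose (0.36, adjusted p = 0.0155, lost without Gcn Leu 2 or Gcn Unstarved 2 or 3, adjusted p up to 0.0968). The aspartate transaminase Got2 rose as well (0.26, adjusted p = 0.0331, lost without Gcn Leu 1 or 2, Gcn Unstarved 1, 2 or 3 or the libraries numbered 1 or without a filter, adjusted p up to 0.12). Lower genes numbered 5 with the replicate block, 1 with library size scaling and 1 without Gcn Leu 2 or 3 or Gcn Unstarved 1 or 2. Higher genes numbered 0 without Gcn Leu 2 or Gcn Unstarved 2 or 3 and 1 without Gcn Leu 1, Gcn Unstarved 1 or the libraries numbered 1. Both Aldh18a1 (interaction -0.74 ± 0.14, adjusted p = 0.00764) and Mthfd2 (-0.90 ± 0.12, adjusted p = 0.000104) rose in Wt.

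Of 20 cytosolic tRNA synthetases, 4 fell and none rose (median -0.10). Lars, which charges leucine, was at 278, 228 and 266 CPM in Gcn Leu, against 289.8, 254 and 250.2 CPM in Gcn Unstarved and was not called (log2 fold change -0.04 ± 0.10 (SE), adjusted p = 0.838). The 4 that fell were Iars (isoleucine, -0.41), Cars (cysteine, -0.33), Tars (threonine, -0.27) and Kars (lysine, -0.27), with adjusted p-values of 0.0293, 0.0331, 0.0219 and 0.035. This count was 8 with the replicate block, 0 with library size scaling, 0 without Gcn Unstarved 1 or 2, 1 without Gcn Leu 2 and 2 without Gcn Leu 3 or the libraries numbered 1. In Wt, Iars (0.28), Tars (0.17) and Lars (0.50) rose, and the interaction was called negative for 4 of the 20, against 0.668% of all genes, among them Iars (-0.70 ± 0.15, adjusted p = 0.0211) and Tars (-0.45 ± 0.09, adjusted p = 0.01). The call for Iars was lost without Gcn Leu 2, Gcn Unstarved 1, Gcn Unstarved 2, Wt Leu 2, Wt Leu 3 or Wt Unstarved 3 (adjusted p up to 0.0726).

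Genes that break down branched-chain amino acids, which include leucine, changed in 4 of 14 cases, 3 higher and 1 lower (median 0.04). Slc25a44, the mitochondrial carrier for these amino acids, was at 116, 119 and 108 CPM in Gcn Leu, against 61.6, 55.5 and 55.2 CPM in Gcn Unstarved (log2 fold change 0.99 ± 0.09 (SE), adjusted p = 1.14e-05). It was 1.99-fold higher with no overlap. The first enzymes of the route, the transaminases Bcat1 (-0.05, adjusted p = 0.729) and Bcat2 (0.01, adjusted p = 0.947), were not called. Bckdha, a subunit of the branched-chain ketoacid dehydrogenase, rose (0.34, adjusted p = 0.00963, lost without Gcn Unstarved 1, adjusted p up to 0.0537). So did Ivd, which acts on the leucine branch (0.35, adjusted p = 0.0152, lost without Gcn Leu 1, Gcn Unstarved 1 or 2 or the libraries numbered 1, adjusted p up to 0.095). Bckdk, the kinase that inhibits that dehydrogenase, fell (-0.27, adjusted p = 0.0365, lost without Gcn Leu 2 or 3, Gcn Unstarved 1 or 2 or the libraries numbered 1, with library size scaling, without a filter or in a fit of 6 libraries, adjusted p up to 0.165). With the replicate block, 5 genes of the list were higher.

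In the methionine cycle, 3 of 7 genes fell and none rose. Mat2a, which makes S-adenosylmethionine, was at 201, 189 and 226 CPM in Gcn Leu, against 416, 415 and 434 CPM in Gcn Unstarved, a 2.05-fold decrease without overlap (log2 fold change -1.04 ± 0.09 (SE), adjusted p = 1.07e-05). Mettl16, the RNA methyltransferase that controls splicing and stability of Mat2a mRNA, was at 133, 156 and 154 CPM in Gcn Leu, against 205, 239.6 and 221 CPM in Gcn Unstarved (log2 fold change -0.59 ± 0.10 (SE), adjusted p = 0.00115). Ahcyl1, a relative of adenosylhomocysteinase, also fell (-0.66, adjusted p = 9.78e-05). Mat2a (-0.86), Mettl16 (-0.50) and Ahcyl1 (-0.34) also fell in Wt.

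Lysosomal genes, among them targets of TFEB, TFE3 and MITF, rose in large part. Among lysosome and autophagy genes, 21 of 33 rose and 2 fell, against 11.7% and 10.0% of all genes, and the median log2 fold change was 0.35. Leaving out 1 library left 14 to 20 higher genes, and lower ones numbered 0 with library size scaling, 0 without Gcn Leu 2 or Gcn Unstarved 2 and 1 without Gcn Leu 3 or Gcn Unstarved 1. Hexa, a lysosomal hexosaminidase subunit, was at 144, 139 and 109 CPM in Gcn Leu, against 65.8, 64.3 and 60.9 CPM in Gcn Unstarved (log2 fold change 1.03 ± 0.12 (SE), adjusted p = 8.00e-05). Ctsa, cathepsin A, was at 154, 162 and 142 CPM in Gcn Leu, against 78.5, 79.1 and 75.7 CPM in Gcn Unstarved (log2 fold change 0.97 ± 0.08 (SE), adjusted p = 8.83e-06). Mcoln1, the lysosomal calcium channel TRPML1, was at 34.3, 33.5 and 31.4 CPM in Gcn Leu, against 21.4, 18.4 and 20.4 CPM in Gcn Unstarved (log2 fold change 0.72 ± 0.09 (SE), adjusted p = 0.000154). In all 3, every starved library exceeded every unstarved one.

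The promoters of Mcoln1 and Ctsa are shown for CACGTG, the core of the CLEAR element that TFEB, TFE3 and MITF recognise. They are RefSeq windows on GRCm38.p6, both on the plus strand, at chr8:3500269-3500568 for Mcoln1 and chr2:164833523-164833822 for Ctsa. Capitals mark CACGTG, a palindrome that reads alike on both strands and does not overlap TGATGNAA.
Mcoln1: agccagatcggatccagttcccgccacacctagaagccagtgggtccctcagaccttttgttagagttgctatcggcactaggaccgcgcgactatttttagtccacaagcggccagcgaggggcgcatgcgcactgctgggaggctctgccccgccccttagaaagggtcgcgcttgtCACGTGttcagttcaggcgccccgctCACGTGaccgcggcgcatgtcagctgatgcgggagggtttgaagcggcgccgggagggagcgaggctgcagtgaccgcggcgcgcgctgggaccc
Ctsa: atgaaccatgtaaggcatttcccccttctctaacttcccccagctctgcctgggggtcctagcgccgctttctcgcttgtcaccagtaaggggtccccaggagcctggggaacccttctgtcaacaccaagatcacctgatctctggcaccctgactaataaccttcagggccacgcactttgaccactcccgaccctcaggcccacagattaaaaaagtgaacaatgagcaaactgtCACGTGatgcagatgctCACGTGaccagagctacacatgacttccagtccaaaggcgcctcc
Each of these windows holds 2 copies. Of 26 tested lysosome genes with a window, 9 held CACGTG, among them 8 of the 16 that rose and have a window (Ctsa, Ctsd, Mcoln1, Lamp1, Atp6v0d1, Gaa, Ctsl and Gla), whereas 8.09% of all 27025 genes did. Ctsa has a second, upstream window without a match.

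Enzymes of lysosomal breakdown were among the higher genes. The glycosidases Gla (0.78, adjusted p = 0.000263), Neu1 (0.76, adjusted p = 0.000352) and Gaa (0.53, adjusted p = 0.00341) rose. The proteases Ctsl (0.70, adjusted p = 0.000227) and Tpp1 (0.55, adjusted p = 0.000611) rose too, and so did the saposin precursor Psap (0.49, adjusted p = 0.00412). Atp6v0d1, a subunit of the proton pump that acidifies the lysosome, rose (0.48, adjusted p = 0.00356), while its pump partner Atp6v1a was not called (-0.07, adjusted p = 0.622). Of the transcription factors, Mitf rose (0.45, adjusted p = 0.00713), and Tfeb (0.24, adjusted p = 0.327) and Tfe3 (0.00, adjusted p = 0.998) were not called, with Tfeb called higher under the replicate block (adjusted p = 0.0175). On the autophagy side, Uvrag, a partner of Beclin, rose (0.48, adjusted p = 0.00208), and the conjugation and initiation genes Map1lc3b (0.19, adjusted p = 0.11) and Ulk1 (0.02, adjusted p = 0.943) were not called. Among the 2 that fell was Npc1, the cholesterol exporter (-0.37, adjusted p = 0.0147, lost without Gcn Leu 2 or Gcn Unstarved 2 or with library size scaling, adjusted p up to 0.0634). The other was Sqstm1, the cargo receptor p62 (-0.35, adjusted p = 0.0236, lost without Gcn Leu 2 or 3 or Gcn Unstarved 1 or 2 or with library size scaling, adjusted p up to 0.0965). The list moved in the same way with GCN2: 20 members rose in Wt, 18 of them also in Gcn, and the interaction was called for 0 of the 33 by edgeR (5 with an unadjusted p under 0.05) and for 2 by DESeq2, counts that do not show equal responses.

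**Figure D4:**
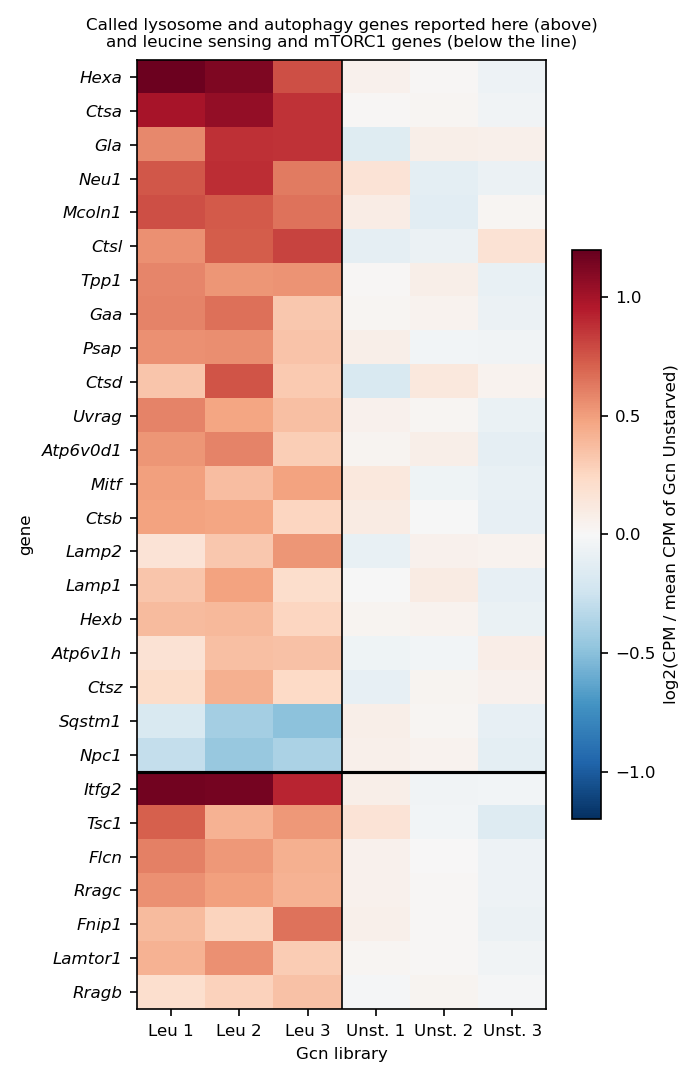
Log2 ratio of CPM to the mean of Gcn Unstarved (colour) for called lysosome and autophagy genes reported here and the 7 called mTORC1-pathway genes (rows) in Gcn Leu 1 to 3 (left) and Gcn Unstarved 1 to 3 (right). Npc1 and Sqstm1 are the rows below the mean in Gcn Leu.

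Regulators of mTORC1 rose in places. Of 36 genes of leucine sensing and mTORC1 control, 7 rose and none fell (median 0.12), or 13 and 1 with the replicate block. Itfg2, a subunit of the KICSTOR complex that anchors GATOR1, was at 85.9, 85.6 and 72.6 CPM in Gcn Leu, against 40.6, 37.3 and 37.7 CPM in Gcn Unstarved (log2 fold change 1.08 ± 0.10 (SE), adjusted p = 1.42e-05). Flcn, the folliculin tumour suppressor that acts on RagC and RagD, was at 163, 154 and 144 CPM in Gcn Leu, against 111, 108 and 103 CPM in Gcn Unstarved (log2 fold change 0.52 ± 0.08 (SE), adjusted p = 0.000568). Rragc, RagC itself, was at 196, 189 and 180.0 CPM in Gcn Leu, against 139, 135 and 129 CPM in Gcn Unstarved (log2 fold change 0.49 ± 0.08 (SE), adjusted p = 0.000633). These 3 were higher in every starved library than in any unstarved one. Tsc1, of the complex that switches off Rheb (0.56, adjusted p = 0.00389), and Lamtor1, of the Ragulator anchor (0.43, adjusted p = 0.00676), also rose. Fnip1, the partner of folliculin, rose (0.44, adjusted p = 0.0129, lost without Gcn Leu 3 or Gcn Unstarved 2 or 3, adjusted p up to 0.0626). Rragb rose as well (0.28, adjusted p = 0.0258, lost without Gcn Leu 2 or 3 or Gcn Unstarved 1, 2 or 3 or without a filter, adjusted p up to 0.0914). The leucine sensors Sesn1 (0.04, adjusted p = 0.879) and Sesn3 (-0.09, adjusted p = 0.635), the arginine sensor Castor1 (0.18, adjusted p = 0.181) and Mtor (0.12, adjusted p = 0.535) were not called, and the block called Castor1 higher (adjusted p = 0.0274).

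Some targets of MondoA, a nutrient-responsive transcription factor, rose. Txnip, an arrestin that limits glucose uptake and binds thioredoxin, was at 555, 497 and 456 CPM in Gcn Leu, against 173, 148 and 135 CPM in Gcn Unstarved (log2 fold change 1.72 ± 0.11 (SE), adjusted p = 1.32e-06). Its relative Arrdc3 was at 139.6, 141 and 149 CPM in Gcn Leu, against 60.8, 62.9 and 53.4 CPM in Gcn Unstarved (log2 fold change 1.28 ± 0.09 (SE), adjusted p = 1.46e-06), and Arrdc4 rose as well (0.72, adjusted p = 4.61e-05). Txnip was 3.3-fold higher, without overlap. Mlxip, which encodes MondoA, fell (-0.32, adjusted p = 0.0451, lost without Gcn Leu 2 or 3 or Gcn Unstarved 1 or 2, with library size scaling or in a fit of 6 libraries, adjusted p up to 0.18), so that 3 of the 6 genes of this list rose and 1 fell. In Wt the changes were 1.71 for Txnip, 1.36 for Arrdc3 and 0.71 for Arrdc4, with no interaction called.

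Of 13 tested genes in a list of FOXO targets that also holds Foxo4, 4 rose and 2 fell (median 0.21). Cdkn1b, the cell-cycle inhibitor p27, was at 89.2, 95.5 and 96.7 CPM in Gcn Leu, against 51.9, 59.7 and 51.8 CPM in Gcn Unstarved (log2 fold change 0.78 ± 0.10 (SE), adjusted p = 0.000116). Ccng2, an atypical cyclin linked to cell-cycle arrest, was at 16.97, 17.8 and 17.4 CPM in Gcn Leu, against 9.03, 9.21 and 9.996 CPM in Gcn Unstarved (log2 fold change 0.89 ± 0.10 (SE), adjusted p = 4.84e-05). Both were higher in every starved library. Pik3ip1, an inhibitor of PI3K (0.99, adjusted p = 0.00139), and the insulin-receptor substrate Irs2 (0.49, adjusted p = 0.00629) rose too. Erbb3, a receptor of the EGF receptor family, fell (-0.60, adjusted p = 0.00731). Foxo4 itself fell (-0.30, adjusted p = 0.0149, lost without Gcn Leu 2 or with library size scaling, adjusted p up to 0.0678). The count of lower genes was 1 with library size scaling and 1 without Gcn Leu 2.

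Part of the lipid synthesis genes fell. Of 23 sterol synthesis and uptake genes, 10 fell and 1 rose (median -0.23). The number that fell was 5 with library size scaling, 5 without Gcn Unstarved 1 or 2 and 6 without Gcn Leu 2. Dhcr7, the last enzyme of cholesterol synthesis, was at 25.2, 22.4 and 23.1 CPM in Gcn Leu, against 52.6, 53.7 and 48.4 CPM in Gcn Unstarved (log2 fold change -1.13 ± 0.09 (SE), adjusted p = 3.73e-06). Hmgcs1, which opens the mevalonate route, was at 160.0, 141 and 166 CPM in Gcn Leu, against 305, 289 and 269 CPM in Gcn Unstarved (log2 fold change -0.89 ± 0.09 (SE), adjusted p = 3.19e-05). The starved libraries were below the unstarved ones in both, by 2.19-fold for Dhcr7. Msmo1 (-0.62, adjusted p = 0.000651), of the demethylation steps, and Insig1 (-0.46, adjusted p = 0.00264), which retains SREBP in the ER, fell. So did the regulator Srebf2 (-0.37, adjusted p = 0.0152, lost without Gcn Leu 2 or 3 or Gcn Unstarved 1 or 2 or with library size scaling, adjusted p up to 0.0639). Sc5d, a late desaturase, was the member that rose (0.40, adjusted p = 0.00742). For Dhcr7 the interaction was -0.55 ± 0.12, adjusted p = 0.0307, lost without Gcn Leu 2, Gcn Unstarved 1 or 2, Wt Leu 2, Wt Unstarved 1 or Wt Unstarved 3 (adjusted p up to 0.123).

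Of 12 fatty acid synthesis genes, 3 fell and none rose (median -0.20), with lower genes numbering 7 with the replicate block and 5 without Gcn Leu 1 or the libraries numbered 1. Fads2, a desaturase of polyunsaturated fatty acids, was at 36.3, 29.6 and 30.9 CPM in Gcn Leu, against 54.1, 55.4 and 50.3 CPM in Gcn Unstarved (log2 fold change -0.72 ± 0.10 (SE), adjusted p = 0.000185). Me1, malic enzyme, which supplies NADPH, fell (-0.54, adjusted p = 0.00654). So did Scd1, the stearoyl-CoA desaturase (-0.49, adjusted p = 0.0261, lost without Gcn Leu 2 or 3 or Gcn Unstarved 1 or 2 or with library size scaling, adjusted p up to 0.0974). Fasn (-0.13, adjusted p = 0.304) and Acaca (-0.17, adjusted p = 0.314), which build the chain, were not called, though the block called Acaca lower (adjusted p = 0.0458).

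Glycolysis and hypoxia genes moved both ways, with 5 of 23 lower and 2 higher (median -0.16), or 12 and 4 with the replicate block. Vegfa, the angiogenic factor that is a target of both HIF1 and ATF4, was at 10.4, 7.997 and 8.23 CPM in Gcn Leu, against 19.6, 17.5 and 16.6 CPM in Gcn Unstarved (log2 fold change -1.01 ± 0.13 (SE), adjusted p = 0.000184). It rose in Wt (0.60), and the interaction was -1.62 ± 0.20, adjusted p = 0.000105. Ankrd37, a hypoxia-induced gene, fell (-1.04, adjusted p = 0.000263), as did Aldoa, aldolase A (-0.54, adjusted p = 0.00342), and the glucose transporter Slc2a1 (-0.51, adjusted p = 0.00252). Pfkfb3, which makes an activator of phosphofructokinase, was at 41.4, 33.5 and 33.2 CPM in Gcn Leu, against 20.02, 19.99 and 15.2 CPM in Gcn Unstarved (log2 fold change 0.97 ± 0.13 (SE), adjusted p = 0.00019). The glucose transporter Slc2a3 rose too (0.44, adjusted p = 0.00259). The 2 glucose transporters thus moved in opposite directions, each without overlap between groups. Gapdh fell (-0.31, adjusted p = 0.0183, lost without Gcn Leu 3 or Gcn Unstarved 2 or with library size scaling, adjusted p up to 0.0735).

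Of 18 immediate early genes, which answer mitogens within minutes, 8 fell and 3 rose (median -0.35). DESeq2 called 7 lower. Maff, a small MAF factor, was at 23.8, 25.7 and 19.2 CPM in Gcn Leu, against 7.95, 9.51 and 9.35 CPM in Gcn Unstarved (log2 fold change 1.35 ± 0.16 (SE), adjusted p = 9.78e-05). Fosl1, of the AP-1 family, was at 0.665, 1.04 and 0.831 CPM in Gcn Leu, against 1.69, 3.78 and 2.28 CPM in Gcn Unstarved (log2 fold change -1.61 ± 0.31 (SE), adjusted p = 0.00217). Myc was at 49.3, 47.1 and 52.96 CPM in Gcn Leu, against 77.3, 78.5 and 75.3 CPM in Gcn Unstarved (log2 fold change -0.63 ± 0.08 (SE), adjusted p = 0.000138). Starved and unstarved libraries did not overlap in these, with Maff above and the others below. Ier3 (-0.99, adjusted p = 0.00191), Nr4a1 (-0.51, adjusted p = 0.00119), Srf (-0.40, adjusted p = 0.00589) and Fosb (-1.14, adjusted p = 0.00876) fell, and Jun (0.56, adjusted p = 0.00686) and Ier2 (0.39, adjusted p = 0.00793) rose. Egr1 (-0.86, adjusted p = 0.0215, lost without Gcn Leu 1 or 3, Gcn Unstarved 2 or the libraries numbered 1, adjusted p up to 0.134) and Egr3 (-1.44, adjusted p = 0.0291, lost without Gcn Leu 2 or 3, Gcn Unstarved 1 or 2 or the libraries numbered 1, adjusted p up to 0.0971), zinc-finger factors, also fell. Fos (-0.08, adjusted p = 0.838) and Junb (-0.08, adjusted p = 0.729) were not called.

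Among 12 genes of ERK feedback, 3 fell and 2 rose (median -0.14). Lower genes numbered 6 with the replicate block and 1 without Gcn Unstarved 2 and higher genes 1 without Gcn Leu 2 or 3 or Gcn Unstarved 1 or 3. Dusp4, a nuclear phosphatase of ERK and other MAP kinases, was at 129.6, 104 and 103 CPM in Gcn Leu, against 49.4, 48.3 and 47.4 CPM in Gcn Unstarved (log2 fold change 1.22 ± 0.10 (SE), adjusted p = 7.07e-06). Dusp5, which acts on nuclear ERK, fell (-0.56, adjusted p = 0.00241). Dusp6, the cytoplasmic ERK phosphatase often read as a gauge of the pathway, was not called (0.03, adjusted p = 0.838). Fgf15, a growth factor of the endocrine FGF subfamily, was at 9.52, 13.5 and 10.1 CPM in Gcn Leu, against 21.8, 23.96 and 21.7 CPM in Gcn Unstarved (log2 fold change -1.03 ± 0.14 (SE), adjusted p = 0.000245). It was the one of 4 called FGF genes that kept its call without any single library. The others were Fgf18 (-0.43), Fgfr4 (0.68) and Fgfr2 (0.39), and of the 15 FGF genes 2 rose and 2 fell (median -0.17), close to the 11.7% higher and 10.0% lower of all genes. Higher genes numbered 0 without Gcn Leu 1, Gcn Unstarved 1 or the libraries numbered 1 and 1 without Gcn Leu 2 or 3 or Gcn Unstarved 2 or 3. Lower genes numbered 4 with the replicate block, 1 with library size scaling, 1 with DESeq2 and 1 without Gcn Leu 2 or 3 or Gcn Unstarved 1, 2 or 3. Fgf4, the main ERK-activating ligand of these cells, was not called (-0.19, adjusted p = 0.104), although the block called it lower (adjusted p = 0.00375).

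The Notch ligands Dll1, Dll4 and Jag1 rose, while Dll3 (0.43, adjusted p = 0.118) and Jag2 (-0.22, adjusted p = 0.0904) were not called. The replicate block called Dll3 higher (adjusted p = 0.0273) and Jag2 lower (adjusted p = 0.0116). Dll1, a transmembrane Notch ligand, was at 24.5, 31.5 and 27.4 CPM in Gcn Leu, against 5.82, 7.79 and 7.91 CPM in Gcn Unstarved (log2 fold change 1.95 ± 0.15 (SE), adjusted p = 3.62e-06), a 3.86-fold increase. Dll4, another, was at 0.630, 0.293 and 0.623 CPM in Gcn Leu, against 0.0868, 0.0749 and 0.0760 CPM in Gcn Unstarved (log2 fold change 2.65 ± 0.52 (SE), adjusted p = 0.00256), on 2 counts in each unstarved library. Jag1, of the Jagged class, was at 69.2, 78.5 and 71.1 CPM in Gcn Leu, against 45.8, 46.1 and 44.4 CPM in Gcn Unstarved (log2 fold change 0.68 ± 0.08 (SE), adjusted p = 0.000111). The Notch target Hes1 rose as well (0.46, adjusted p = 0.00305). These 4 were higher in every starved library. Of 15 Notch genes, 5 rose and 1 fell (median 0.03), against 11.7% and 10.0% of all genes, with lower genes numbering 6 with the replicate block, 0 without Gcn Unstarved 2 and 2 without Gcn Leu 1, Gcn Unstarved 3 or the libraries numbered 1. The one that fell was Hey2, a Notch target (-0.79, adjusted p = 0.0134, lost without Gcn Unstarved 2, adjusted p up to 0.0699), and the receptors Notch1 (-0.15, adjusted p = 0.269) and Notch2 (0.06, adjusted p = 0.814) were not called. The fifth riser was Lfng, which modifies Notch with sugar (0.37, adjusted p = 0.0447, lost without Gcn Leu 1, 2 or 3, Gcn Unstarved 1 or 2 or the libraries numbered 1 or in a fit of 6 libraries, adjusted p up to 0.217). DESeq2 called 4 genes of this list higher.

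Of 16 clock genes, 4 rose and 1 fell (median 0.10). Bhlhe41, the repressor DEC2, was at 21.9, 28.2 and 24.95 CPM in Gcn Leu, against 3.60, 3.18 and 3.91 CPM in Gcn Unstarved. It was 7-fold higher with no overlap (log2 fold change 2.81 ± 0.14 (SE), adjusted p = 1.28e-07). Its paralog Bhlhe40, DEC1, was at 42.2, 32.6 and 34.998 CPM in Gcn Leu, against 20.8, 16.9 and 15.5 CPM in Gcn Unstarved (log2 fold change 1.04 ± 0.14 (SE), adjusted p = 0.000162). The PAR bZIP factor Hlf rose (0.91, adjusted p = 0.00195). So did its relative Dbp (0.39, adjusted p = 0.0147, lost without Gcn Leu 2, Gcn Unstarved 1 or the libraries numbered 1, adjusted p up to 0.0721). The clock repressor Per1 fell (-0.37, adjusted p = 0.0098). The core activators Clock (-0.38, adjusted p = 0.16) and Arntl (0.00, adjusted p = 0.991) were not called, but the block called Clock lower (adjusted p = 0.0154), and lower clock genes then numbered 4, against 2 without Gcn Leu 3.

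All 3 Gadd45 genes, which encode stress- and growth-arrest proteins that bind MAP kinase kinases, rose. Gadd45g was at 14.9, 21.7 and 16.7 CPM in Gcn Leu, against 3.47, 3.74 and 3.46 CPM in Gcn Unstarved, a 4.99-fold increase (log2 fold change 2.32 ± 0.21 (SE), adjusted p = 1.88e-05). Gadd45b was at 14.9, 15.2 and 19.3 CPM in Gcn Leu, against 8.99, 9.62 and 12.05 CPM in Gcn Unstarved (log2 fold change 0.69 ± 0.15 (SE), adjusted p = 0.00435). Gadd45a rose at the edge of the threshold (0.54, adjusted p = 0.0476, lost without Gcn Leu 2 or 3 or Gcn Unstarved 1, 2 or 3 or by limma-voom, adjusted p up to 0.161). None of the 3 genes had overlapping groups, and those of Gadd45a were closest, at 68.6 CPM in Gcn Leu 1 and 62.9 CPM in Gcn Unstarved 2.

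Part of the protective gene programmes fell. Of 16 tested NRF2 targets, which defend against oxidants, 8 fell and none rose (median -0.35). Gclc, the catalytic subunit of the enzyme that starts glutathione synthesis, was at 45.8, 34.8 and 40.8 CPM in Gcn Leu, against 89.3, 72.96 and 69.1 CPM in Gcn Unstarved (log2 fold change -0.93 ± 0.15 (SE), adjusted p = 0.000948). Hmox1, haem oxygenase, was at 116, 139.6 and 123 CPM in Gcn Leu, against 188, 252 and 214 CPM in Gcn Unstarved (log2 fold change -0.79 ± 0.11 (SE), adjusted p = 0.000291). Srxn1, sulfiredoxin, was at 26.2, 23.9 and 21.4 CPM in Gcn Leu, against 46.7, 43.99 and 37.3 CPM in Gcn Unstarved (log2 fold change -0.84 ± 0.12 (SE), adjusted p = 0.000217). The groups did not overlap in any of them. Nqo1 (-0.54, adjusted p = 0.0051), Txnrd1 (-0.44, adjusted p = 0.00174) and Gclm (-0.36, adjusted p = 0.00729) fell as well, and Nfe2l2, which encodes NRF2, was not called (0.13, adjusted p = 0.413). The list also fell in part in Wt, with Gclc at -0.57, Hmox1 at -0.73 and Srxn1 at -0.96, and none of these interactions was called.

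Of 16 heat shock genes, 4 fell and 1 rose (median -0.28), with lower genes numbering 9 with the replicate block and 2 without Gcn Unstarved 2. Hspa8, the constitutive HSC70, was at 885, 979 and 901 CPM in Gcn Leu, against 1315, 1320.1 and 1229 CPM in Gcn Unstarved (log2 fold change -0.48 ± 0.08 (SE), adjusted p = 0.00129). Bag3, its co-chaperone, rose (0.47, adjusted p = 0.00446). Hspa1b, inducible HSP70, fell (-0.96, adjusted p = 0.00532), but reads of its near-identical copy Hspa1a (-0.37, adjusted p = 0.242) may be split between them, so this pair is uncertain. Dnajb1 (-0.40, adjusted p = 0.0451, lost without Gcn Leu 1 or 3 or Gcn Unstarved 2 or 3 or with library size scaling, adjusted p up to 0.148) and Hsph1 (-0.31, adjusted p = 0.0126, lost without Gcn Unstarved 2, adjusted p up to 0.0552) also fell.

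Of 24 genes in a list of p53 targets that also holds Trp53, which encodes p53, 7 fell and 2 rose (median -0.19). With the replicate block, 14 were lower. Mdm2, the ubiquitin ligase of p53, was at 164, 182 and 187 CPM in Gcn Leu, against 243, 284 and 243 CPM in Gcn Unstarved (log2 fold change -0.53 ± 0.09 (SE), adjusted p = 0.00105). Plk2, a polo-like kinase, was at 46.1, 66.2 and 54.6 CPM in Gcn Leu, against 76.5, 101 and 77.6 CPM in Gcn Unstarved (log2 fold change -0.61 ± 0.14 (SE), adjusted p = 0.00696), with each starved library below each unstarved one. Zmat3 (-0.49, adjusted p = 0.00268), Polk (-0.59, adjusted p = 0.00332) and Plk3 (-0.46, adjusted p = 0.000913) fell too. Cdkn1a, the inhibitor p21, rose (0.30, adjusted p = 0.035, lost without Gcn Leu 1 or 2, Gcn Unstarved 1, 2 or 3 or the libraries numbered 1, adjusted p up to 0.148). Trp53 itself rose (0.28, adjusted p = 0.0495, lost without Gcn Leu 1 or 2, Gcn Unstarved 1, 2 or 3 or the libraries numbered 1, with RLE scaling or in a fit of 6 libraries, adjusted p up to 0.219). The p21 change was of opposite sign in Wt (-0.51; interaction 0.80 ± 0.15, adjusted p = 0.0085). Higher genes of the list numbered 0 without Gcn Leu 2, Gcn Unstarved 1, 2 or 3 or the libraries numbered 1 and 1 without Gcn Leu 1. In the BCL2 family, Bcl2l11, which encodes the pro-apoptotic BIM, was at 19.2, 18.98 and 22.9 CPM in Gcn Leu, against 31.2, 32.6 and 32.5 CPM in Gcn Unstarved (log2 fold change -0.66 ± 0.10 (SE), adjusted p = 0.000355). The pro-survival Mcl1 rose (0.32, adjusted p = 0.0238, lost without Gcn Leu 2 or 3 or Gcn Unstarved 1, 2 or 3, adjusted p up to 0.116). They were 2 of 10 genes. Higher genes numbered 3 with the replicate block, 3 with library size scaling, 0 without Gcn Leu 2 or 3 or Gcn Unstarved 2 or 3 and 2 without the libraries numbered 1. The ISR-induced killer Bbc3 (-0.03, adjusted p = 0.912) was not called.

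The translation apparatus was touched at a few genes. Of 79 ribosomal protein genes, 0 were called by edgeR, with 7 lower and none higher at an unadjusted p under 0.05. DESeq2 called 2 lower, limma-voom 1 and the replicate block 25, and edgeR called 5 without Gcn Unstarved 1, 1 without Gcn Leu 2 and 6 without the libraries numbered 1. Their median was -0.09. Of 26 translation factors, 6 fell and 2 rose (median -0.12), or 12 lower with the block. Eif5, the GTPase activator of eIF2, was at 198, 211 and 239.6 CPM in Gcn Leu, against 582, 566 and 539 CPM in Gcn Unstarved. It was 2.6-fold lower without overlap (log2 fold change -1.38 ± 0.09 (SE), adjusted p = 1.45e-06), further than in Wt (interaction -0.65 ± 0.12, adjusted p = 0.00497). Eif1, which like Eif5 sets start-codon choice but with the opposite effect, was at 584, 614 and 536 CPM in Gcn Leu, against 417, 405 and 397 CPM in Gcn Unstarved (log2 fold change 0.51 ± 0.09 (SE), adjusted p = 0.00125). Eif4a2, an RNA helicase, rose (0.53, adjusted p = 0.00783), and Pabpc1 (-0.46, adjusted p = 0.00134), Eif4g2 (-0.47, adjusted p = 0.00514), Eif2s2, the β subunit of eIF2 (-0.55, adjusted p = 0.00778), and the cap-binding Eif4e (-0.41, adjusted p = 0.00558) fell.

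Of 35 ribosome biogenesis genes, 10 fell and 3 rose (median -0.19), or 20 lower with the block. Rrp9, a protein of the U3 small nucleolar particle, was at 86.02, 92.2 and 83.3 CPM in Gcn Leu, against 232, 257 and 257 CPM in Gcn Unstarved, a 2.85-fold decrease (log2 fold change -1.51 ± 0.09 (SE), adjusted p = 7.56e-07). Nop14, of the small-subunit processome, was at 100.4, 90.2 and 101 CPM in Gcn Leu, against 165, 171 and 159 CPM in Gcn Unstarved (log2 fold change -0.77 ± 0.08 (SE), adjusted p = 3.58e-05). In Wt, Rrp9 fell less (-0.87) and Nop14 was not called (-0.14, adjusted p = 0.0848), with interactions of -0.65 ± 0.10, adjusted p = 0.00141 for Rrp9 and -0.64 ± 0.10, adjusted p = 0.000799 for Nop14. Among subunits of RNA polymerase I, Polr1a, the largest, rose (0.52, adjusted p = 0.00115), whereas Polr1b (-0.48, adjusted p = 0.000631) and Polr1e (-0.45, adjusted p = 0.00136) fell. Hosts of small nucleolar RNAs moved both ways, 3 of 11 lower and 1 higher, or 6 and 3 with the block. Dancr was at 8.19, 10.95 and 11.03 CPM in Gcn Leu, against 21.6, 22.5 and 27.9 CPM in Gcn Unstarved (log2 fold change -1.25 ± 0.15 (SE), adjusted p = 0.0001). Snhg1 was at 131, 175 and 168 CPM in Gcn Leu, against 75.5, 96.3 and 111 CPM in Gcn Unstarved (log2 fold change 0.75 ± 0.15 (SE), adjusted p = 0.00366). Dancr was below and Snhg1 above the unstarved range in every starved library, Snhg5 (-0.98, adjusted p = 4.61e-05) and Snhg3 (-0.81, adjusted p = 0.00231) fell, and Gas5 (-0.10, adjusted p = 0.835) was not called. The count of higher hosts was also 2 without the libraries numbered 1.

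Of 23 replication genes, 7 rose and none fell (median 0.16), against 11.7% higher and 10.0% lower of all genes, or 20.5% higher with the replicate block. The number that rose was 13 with the replicate block, 11 with library size scaling, 3 without Gcn Leu 2 or Gcn Unstarved 1, 2 or 3 and 4 without Gcn Leu 1 or the libraries numbered 1. Gins3, of the replicative helicase complex, was at 50.3, 49.96 and 51.4 CPM in Gcn Leu, against 34.3, 35.6 and 32.5 CPM in Gcn Unstarved (log2 fold change 0.57 ± 0.08 (SE), adjusted p = 0.000385). E2f1, the S-phase transcription factor, rose (0.56, adjusted p = 0.00157), as did the helicase subunit Mcm2 (0.40, adjusted p = 0.00889), while Pcna (0.12, adjusted p = 0.607) and Ccne1 (-0.06, adjusted p = 0.719) were not called. Of 20 mitotic genes, Ccna2, cyclin A2, was the one called lower (-0.33, adjusted p = 0.0121, lost without Gcn Unstarved 2, adjusted p up to 0.0562). Lower mitotic genes numbered 5 with the replicate block, 0 without Gcn Unstarved 2 and 2 without Gcn Leu 3, and higher ones 1 with the replicate block, 1 with library size scaling and 1 without Gcn Leu 3. Cdk1 (-0.12, adjusted p = 0.45) and Mki67 (0.30, adjusted p = 0.448) were not called.

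Several naive pluripotency genes rose. Of 16, 9 rose and 1 fell (median 0.37). Tbx3, a T-box factor that upholds self-renewal, was at 333, 283 and 273 CPM in Gcn Leu, against 155, 145 and 143 CPM in Gcn Unstarved (log2 fold change 1.00 ± 0.09 (SE), adjusted p = 1.39e-05). Klf2, a Krüppel-like factor, was at 895, 902 and 772 CPM in Gcn Leu, against 475, 513 and 449.8 CPM in Gcn Unstarved (log2 fold change 0.84 ± 0.10 (SE), adjusted p = 5.76e-05). Nanog was at 722, 699 and 757 CPM in Gcn Leu, against 552, 534 and 594 CPM in Gcn Unstarved (log2 fold change 0.37 ± 0.08 (SE), adjusted p = 0.00607). These 3 were higher in every starved library. Zfp42 (0.52, adjusted p = 0.000627), Esrrb (0.45, adjusted p = 0.00687) and Stat3, which relays LIF (0.55, adjusted p = 0.00105), rose too. Pou5f1, which encodes OCT4, was at 2209, 2387 and 2099 CPM in Gcn Leu, against 2478, 2531 and 2503 CPM in Gcn Unstarved and was not called (-0.17, adjusted p = 0.225). It was lower with the block (adjusted p = 0.0149), and Sox2 (0.12, adjusted p = 0.368) was not called. Nr5a2, a nuclear receptor that activates Pou5f1, was the one that fell (-0.49, adjusted p = 0.00688), and the block gave 3 lower genes.

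Of 17 tested primed and lineage genes, 4 rose and 4 fell (median 0.27). Gata2, a blood and endothelial factor, was at 13.3, 12.5 and 9.74 CPM in Gcn Leu, against 3.65, 3.03 and 4.18 CPM in Gcn Unstarved (log2 fold change 1.70 ± 0.18 (SE), adjusted p = 3.19e-05). Gata4, of primitive endoderm and heart, was at 7.84, 6.99 and 4.96 CPM in Gcn Leu, against 3.65, 3.26 and 3.003 CPM in Gcn Unstarved (log2 fold change 0.99 ± 0.20 (SE), adjusted p = 0.00376). Eomes, of mesendoderm and trophoblast, was at 2.06, 1.27 and 1.61 CPM in Gcn Leu, against 3.30, 4.75 and 4.14 CPM in Gcn Unstarved (log2 fold change -1.31 ± 0.20 (SE), adjusted p = 0.000508). Gata2 and Gata4 were higher and Eomes lower in every starved library. The primed-state factor Pou3f1 (-0.84, adjusted p = 0.00395) and the methyltransferase Dnmt3a (-0.43, adjusted p = 0.00187) fell. The summed CPM of 9 differentiation markers, none at 0, ran from 41.1 to 42.4 in Gcn Leu and from 30.1 to 35.6 in Gcn Unstarved; its part in these results was not tested. Higher lineage genes numbered 7 with the replicate block and 2 without Gcn Leu 2 or Gcn Unstarved 3.

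Among 16 genes of actin and of SRF and YAP signalling, 2 rose and 1 fell (median 0.09), close to the 11.7% and 10.0% of all genes, with higher genes numbering 5 with the replicate block and 5 with library size scaling. The YAP target Ccn2, connective tissue growth factor, was at 57.02, 63.1 and 70.8 CPM in Gcn Leu, against 30.5, 36.9 and 36.98 CPM in Gcn Unstarved (log2 fold change 0.87 ± 0.12 (SE), adjusted p = 0.000197). Amotl2, which feeds back on YAP, rose (0.78, adjusted p = 5.76e-05). Actb fell (-0.38, adjusted p = 0.019, lost without Gcn Leu 3 or Gcn Unstarved 2, adjusted p up to 0.083). Interferon genes were called in 2 of 5 tested (among them Stat2, 0.46), a count that was 0 without Gcn Unstarved 3 and 1 without Gcn Leu 1 or 2, Gcn Unstarved 1 or 2 or the libraries numbered 1. Of 7 tested fibroblast genes, 0 were called by edgeR or DESeq2, while 1 had an unadjusted p under 0.05 by edgeR. The replicate block called 2 lower, and edgeR called 1 lower without Gcn Leu 2, Gcn Unstarved 1 or the libraries numbered 1.

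Signs of RNA quality moved as follows. Of 19 tested histone transcripts, most of them without a poly(A) tail, 2 rose (median -0.03): Hist1h1c (0.88, adjusted p = 0.000382) and Hist1h1e (1.09, adjusted p = 0.0495, lost without Gcn Leu 1 or 3, Gcn Unstarved 2 or 3 or the libraries numbered 1, with RLE scaling or by limma-voom, adjusted p up to 0.182). Higher histone genes numbered 4 with the replicate block and 1 without Gcn Leu 1 or 3 or Gcn Unstarved 2 or 3. Of 13 listed mitochondrial transcripts, 7 were tested, and mt-Co2, mt-Co3 and mt-Atp6 were among those not tested. Of the 7 tested, mt-Co1, a subunit of cytochrome oxidase, fell (-0.65, adjusted p = 0.00163). DESeq2 called 2, as did edgeR without Gcn Leu 2 or Gcn Unstarved 3. Mitochondrial transcripts took 2.04% to 2.44% of counts in Gcn Leu and 2.41% to 2.98% in Gcn Unstarved. The ribosomal-RNA-like transcript Gm42418 took 1.35%, 1.31% and 2.06% in Gcn Leu, against 3.97%, 1.503% and 2.22% in Gcn Unstarved. The part of these shares in the gene results was not tested.

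The genes with the greatest changes were a mixed set. By the fixed rule, 12 genes were taken in each direction among called genes without overlap and with a mean of at least 1 CPM in the higher group. The greatest increase was that of Fam83a, at chromosome 15, 57985419 to 58011009 on GRCm38, at 3.43, 5.92 and 4.36 CPM in Gcn Leu, against 0.478, 0.636 and 0.494 CPM in Gcn Unstarved (log2 fold change 3.07 ± 0.31 (SE), adjusted p = 3.38e-05). Bhlhe41, at chromosome 6, 145858243 to 145865558, came next (2.81), and after it Tmprss13, a membrane serine protease (2.77, adjusted p = 3.33e-05). Neurog3, the factor that specifies endocrine pancreas, was at 3.25, 2.11 and 3.19 CPM in Gcn Leu, against 0.608, 0.524 and 0.342 CPM in Gcn Unstarved (log2 fold change 2.54 ± 0.28 (SE), adjusted p = 4.63e-05). In Wt, Neurog3 was not called (0.63 ± 0.26, adjusted p = 0.0779), and the interaction was 1.90 ± 0.40, adjusted p = 0.0233. This call was lost without Gcn Unstarved 2, Gcn Unstarved 3, Wt Leu 2 or Wt Unstarved 2 (adjusted p up to 0.0692). Kctd19, known from meiosis (2.52), the non-coding 5930430L01Rik (2.44), Tmem211 (2.16), the immune receptor Cd300e (2.07), the dynein Dnah14 (2.03) and the corepressor Runx1t1 (2.01) rose from low levels, with adjusted p-values of 0.000648, 6.90e-05, 0.000788, 0.000297, 0.00151 and 1.26e-05. Dusp8, a phosphatase of JNK and p38, was at 1.64, 1.85 and 1.79 CPM in Gcn Leu, against 0.868, 0.112 and 0.114 CPM in Gcn Unstarved (log2 fold change 2.34 ± 0.47 (SE), adjusted p = 0.00375). That log2 fold change was 3.90 without Gcn Unstarved 1, where the other unstarved libraries held 3 counts each, and 3.95 without the libraries numbered 1.

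The greatest decrease was that of Ptger2, a prostaglandin E2 receptor, at 0.455, 0.390 and 0.415 CPM in Gcn Leu, against 2.74, 2.28 and 2.20 CPM in Gcn Unstarved (log2 fold change -2.50 ± 0.35 (SE), adjusted p = 0.000269). Evx1, a homeobox gene of the posterior primitive streak, was at 0.315, 0.455 and 0.649 CPM in Gcn Leu, against 2.69, 2.21 and 2.20 CPM in Gcn Unstarved (log2 fold change -2.27 ± 0.28 (SE), adjusted p = 0.0001). Chac1 came next, at chromosome 2, 119351229 to 119354381. Zc3h12a, the endoribonuclease Regnase-1 that trims immune transcripts, was at 6.89, 7.31 and 5.66 CPM in Gcn Leu, against 21.5, 19.4 and 20.1 CPM in Gcn Unstarved (log2 fold change -1.62 ± 0.12 (SE), adjusted p = 2.97e-06). In each the starved libraries lay below the unstarved ones. Esam, an adhesion molecule of endothelium (-1.70, adjusted p = 7.71e-06), Vstm5 (-1.93, adjusted p = 0.000124), Jakmip2 (-1.83, adjusted p = 0.000224), and the non-coding AC131065.2 (-1.79, adjusted p = 1.88e-05) and F730043M19Rik (-2.07, adjusted p = 1.56e-05) fell as well. In Wt, 19 of the 24 genes were called in the same direction, and the interaction was called for 6: Chac1, Trib3, Slc6a9, Herpud1, Neurog3 and F730043M19Rik (-1.50, not called without Wt Leu 2, adjusted p = 0.0554).

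**Figure D5:**
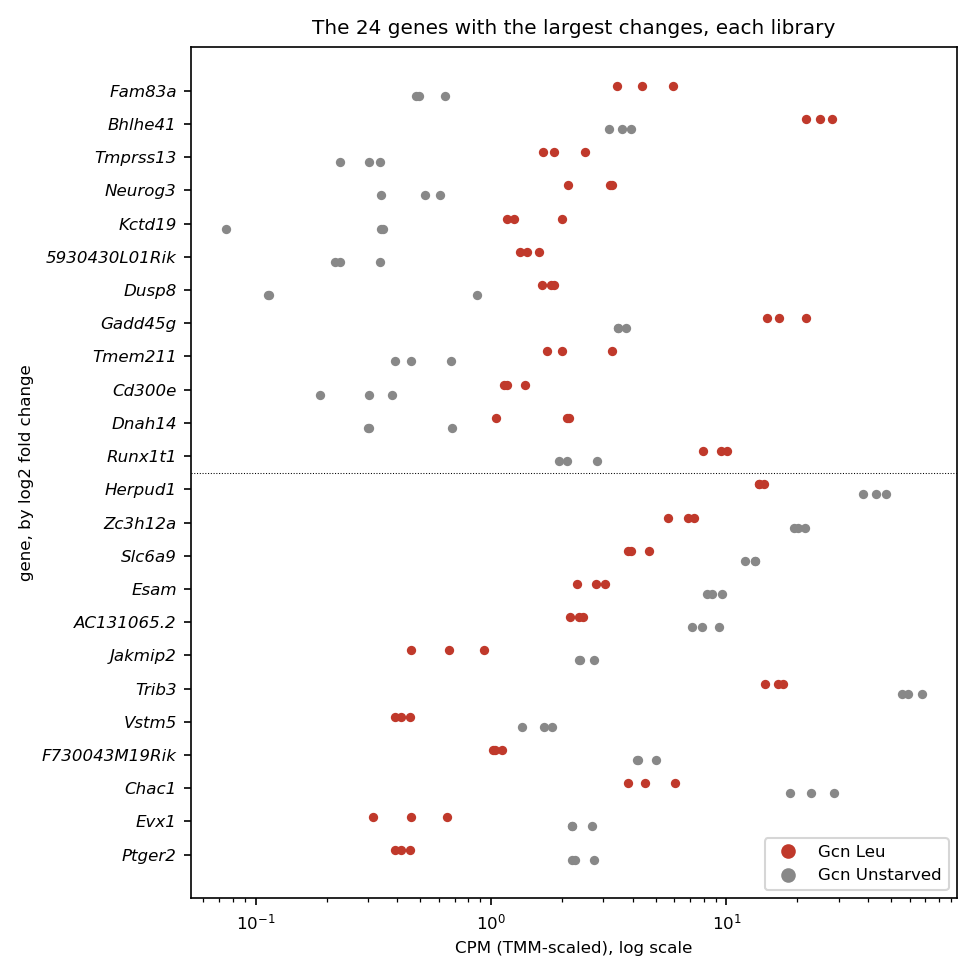
CPM (log axis) of the 12 genes with the greatest increase and the 12 with the greatest decrease, with points for Gcn Leu and Gcn Unstarved libraries. No gene has overlapping groups, as the rule requires.

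Leucine and arginine starvation of cells without GCN2 were compared directly, because both share the unstarved controls. Of 16369 genes, 760 were higher (4.64%) and 635 lower (3.88%) with leucine than with arginine starvation, 1395 in all (8.52%), or 4362 with the replicate block, 710 without Gcn Leu 2 and 711 without Gcn Arg 3. ISR genes differed in 6 of 21 cases, 4 higher and 2 lower in Gcn Leu. Ddit3 was at 15.1, 20.6 and 18.7 CPM in Gcn Leu, against 6.92, 9.98 and 10.1 CPM in Gcn Arg (log2 difference 1.02 ± 0.15, adjusted p = 0.00117), with no overlap. Ndrg1 (0.65 ± 0.09, adjusted p = 0.000925) and Gpt2 (0.49 ± 0.10, adjusted p = 0.00765) were higher as well. For Atf4 the difference was 0.28 ± 0.08, adjusted p = 0.0486, a call lost without any 1 of the 6 libraries (adjusted p up to 0.191). Chac1 was at 4.51, 3.84 and 6.05 CPM in Gcn Leu, against 7.51, 8.81 and 8.69 CPM in Gcn Arg (-0.78 ± 0.19, adjusted p = 0.0211, not called without Gcn Leu 1, Gcn Leu 2, Gcn Arg 2 or Gcn Arg 3, adjusted p up to 0.0691). Nupr1 was lower too (-0.77 ± 0.14, adjusted p = 0.00403).

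Other groups differed between the starvations. Of 33 lysosome genes, 6 were lower with leucine than with arginine starvation and none higher, among them Mcoln1, at 34.3, 33.5 and 31.4 CPM in Gcn Leu, against 56.04, 55.7 and 49.4 CPM in Gcn Arg (-0.70 ± 0.09, adjusted p = 0.000467). Hexa was lower too (-0.50 ± 0.12, adjusted p = 0.0209, not called without Gcn Leu 3, Gcn Arg 1 or Gcn Arg 2, adjusted p up to 0.0758). Of 11 host genes of small nucleolar RNAs, 5 were higher and none lower, with Snhg5 at 0.54 ± 0.11, adjusted p = 0.00804 and Dancr at 0.71 ± 0.17, adjusted p = 0.0175, the last not called without Gcn Leu 2, Gcn Leu 3, Gcn Arg 1 or Gcn Arg 2 (adjusted p up to 0.0675). Of 16 clock genes, 5 were lower and none higher, with Bhlhe41 at 21.9, 28.2 and 24.95 CPM in Gcn Leu, against 30.6, 39.2 and 33.96 CPM in Gcn Arg (-0.47 ± 0.12, adjusted p = 0.0284, not called without Gcn Leu 1, Gcn Leu 3, Gcn Arg 2 or Gcn Arg 3, adjusted p up to 0.0948). Mat2a was at 201, 189 and 226 CPM in Gcn Leu, against 135, 129 and 149 CPM in Gcn Arg (0.58 ± 0.09, adjusted p = 0.00184), so its decrease was smaller with leucine starvation. Slc25a44 was at 116, 119 and 108 CPM in Gcn Leu, against 176, 206 and 184 CPM in Gcn Arg (-0.72 ± 0.09, adjusted p = 0.000304). Eif5 (-0.49 ± 0.09, adjusted p = 0.00566), Rrp9 (-0.83 ± 0.09, adjusted p = 0.000126) and Nop14 (-0.85 ± 0.08, adjusted p = 7.48e-05) were lower with leucine starvation.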

How the data were processed

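RNA from 18 libraries of E14 cells (6 groups of 3) was analysed. Per the labels, 1 µg of total RNA was enriched for poly(A), made into directional libraries and read as 2 × 43 bp. Per the submitters' processing notes, the authors used bcl2fastq, FastQC 0.11.7, STAR 2.7.4a, HTSeq, R 4.0.3 and DESeq2 with GRCm38. The deposited values are raw counts per gene, 1 table per genotype. Strand setting and annotation release: not given in the sources used here. Of 55471 identifiers, 55144 matched a symbol.

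Counts were filtered with filterByExpr, scaled by TMM and tested with edgeR 4.0.16 (quasi-likelihood, limma 3.58.1, statmod 1.5.0, R 4.3.3), with Benjamini-Hochberg adjustment over all genes tested, after a test on simulated data. Leucine against unstarved and leucine against arginine used the 9 Gcn libraries, and the interaction all 18. Genes with an adjusted p under 0.05 count as called. The SE was derived from the test, as the size of the log2 fold change over the square root of its F statistic. DESeq2 1.42.0, limma-voom, other scalings, no filter, other sample sets and leaving out each replicate were alternatives. Tables and plots used Python 3.11.15, pandas 2.3.3 and matplotlib 3.10.9. The median biological coefficient of variation was 0.109.

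The 38 gene lists hold 730 distinct genes, 704 of them tested. Members and lists were chosen with earlier results of these data known. Genes named by rule were the 12 with the greatest change each way (called, no overlap, mean of at least 1 CPM), up to 4 called members of each list with the greatest change, and a fixed set. Other members were named for their roles. Some members enter the counts but are not reported here by name. In the Gcn libraries, deviations from the group means correlated between same-numbered Leu and Unstarved libraries at 0.499, 0.272 and 0.212. Different-numbered ones ran from -0.417 to 0.226. The highest, Gcn Leu 2 with Gcn Unstarved 3, lay above the same-numbered 0.212, so only the libraries numbered 1 stood clearly apart there. Same-numbered Arg and Unstarved libraries correlated at 0.482, 0.208 and 0.186, with a different-numbered value as high as 0.239. Same-numbered Arg and Leu libraries correlated at 0.523, 0.461 and 0.334, and different-numbered ones ran from -0.419 to 0.00755. The numbers were taken to pair the samples for the block. For the numbers 2 and 3, the values with Unstarved do not establish this, while those of Arg with Leu stood apart.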

Additional observations from a re-analysis of the deposited data

Results flagged for a closer look

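Each gene below, a selection from the 113 negative and 26 positive differences called, responded differently to leucine starvation in Gcn and Wt cells by the interaction test over all 18 libraries, at an adjusted p under 0.05 by edgeR. Values are log2 responses in Gcn minus those in Wt. Groups of 3 were not tested for single outlying samples.

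Among ISR genes the differences were Chac1 (-4.15), Inhbe (-4.11), Trib3 (-3.15), Ddit3 (-2.61), Vldlr (-2.32), Gdf15 (-2.27), Stc2 (-2.26) and Nupr1 (-2.04). Smaller ones were found for Cebpb (-1.84), Atf3 (-1.83), Jdp2 (-1.52), Gpt2 (-1.29), Atf4 (-0.91), Ppp1r15a (-0.63), Cebpg (-0.60) and Sesn2 (-0.53).

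In amino acid transport, synthesis and tRNA charging those named were Slc7a11 (-3.14), Slc6a9 (-2.64), Slc3a2 (-0.73), Slc7a5 (-0.65), Mthfd2 (-0.90), Aldh18a1 (-0.74), Iars (-0.70) and Tars (-0.45). In ER, lipid, ribosome and translation genes those named were Herpud1 (-2.76), Xbp1 (-0.77), Dhcr7 (-0.55), Vegfa (-1.62), Rrp9 (-0.65), Nop14 (-0.64), Snhg5 (-0.68) and Eif5 (-0.65). Outside the lists, negative differences named here were Adm2 (-3.06), G0s2 (-2.78) and F730043M19Rik (-1.50). Levels were low for Adm2 (0.618 to 2.13 CPM) and G0s2 (0.943 to 1.90 CPM) across Gcn Leu and Gcn Unstarved.

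Positive differences, a response that lay higher in Gcn than in Wt, were found for Neurog3 (1.90), Tspan12 (1.57), Btg2 (0.88), Rpp25l (0.83), Cdkn1a (0.80), Epp13 (0.74), Itpripl1 (0.70) and Gfod2 (0.66). By the edgeR interaction test, adjusted p was 0.0422 for Tspan12, 0.0384 for Epp13, 0.0233 for Neurog3 and 0.0218 for Gfod2. For the rest of these genes it ran from 0.00155 to 0.0085. Within Gcn, the responses of Btg2 (-0.17), Itpripl1 (0.17) and Gfod2 (-0.06) were not called. Tspan12 lay at 0.41 to 1.27 CPM across Gcn Leu and Gcn Unstarved. Leaving out 1 replicate gave 9 to 70 positive calls.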

How the results depend on the processing

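Of 159 genes named by rule, 151 were called for leucine against unstarved Gcn cells, and none changed direction under the alternatives run. For 115 genes the call held under every alternative that gave the gene an adjusted p. It was lost under at least 1 alternative for 36, with a highest adjusted p between 0.0537 and 0.182. DESeq2 and the fit of 6 libraries gave none for some of the 159 genes, which were not counted as lost there. With the replicate block, which takes same-numbered Gcn libraries as pairs, 6651 genes were called (3348 higher, 3303 lower). It changed the call of 1 of the genes named by rule, Pou5f1. At an adjusted p under 0.01 the count was 1845 (1023 higher, 822 lower), and library size scaling alone gave 1066 lower genes. Leaving out 1 replicate gave 2171 to 3163 calls, 1156 to 1704 higher and 1015 to 1459 lower.

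For leucine against arginine in Gcn, the block gave 4362 calls (2350 higher, 2012 lower), no filter gave 1163 higher, and leaving out 1 replicate gave 710 to 1082, with 357 to 612 higher and 322 to 479 lower. For Gcn minus Wt, 139 genes were called. DESeq2 gave 377 (129 higher, 248 lower), no filter 353 (110 higher, 243 lower), library size scaling 80 higher, and leaving out 1 replicate 74 to 257, with 9 to 70 higher and 65 to 187 lower. The replicate block gave 1878 there (749 higher, 1129 lower). Same-numbered Wt Leu and Wt Unstarved libraries correlated at 0.230, 0.0544 and 0.203. Of these, 0.230 and 0.203 lie near the 0.272 and 0.212 found in Gcn. These values do not settle whether the Wt numbers pair the libraries. The cause of these shifts was not tested. With 3 libraries a group and 24.1 to 38.8 M counts, genes of a few counts, such as Dll4 and Kctd19, carry counting error that limits their fold changes.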

Other observations

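Genes outside the lists also differed between the 2 starvations of cells without GCN2. They were chosen after their values were seen, from the 8 greatest differences each way, and their place among all genes is not tested. Ranked were called genes with a mean of at least 1 CPM in Gcn Leu or Gcn Unstarved. Only part of the ranked genes is named, and some left out, such as the pseudogene Gm5507 (-1.32) and Apc2 (1.22), differed more than some named. Rbm10, an RNA-binding splicing regulator, was higher with leucine than with arginine starvation (log2 difference 1.51), as were Tmem109 (1.39), Plekha2 (1.38), Ngdn, of ribosome assembly (1.36), and Rpp25l (1.18). The lncRNA D030068K23Rik was lower (-1.57), as were Hps4, of lysosome-related organelle assembly (-1.19), Fgf5, a marker of the primed state (-1.16), and Rfesd (-1.14). Against unstarved Gcn cells, leucine starvation left Rbm10 (-0.08), Ngdn (0.19), Plekha2 (0.40), Fgf5 (-0.18) and Rfesd (-0.14) not called by edgeR. Called were Tmem109 (0.33), Rpp25l (0.38), Hps4 (-0.45) and D030068K23Rik (-1.06). Rbm10 was at 87.4, 79.3 and 80.1 CPM in Gcn Leu, against 89.7, 87.9 and 82.9 CPM in Gcn Unstarved and 31.6, 26.6 and 28.2 CPM in Gcn Arg.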
